A study of Mus musculus with 4 samples.

Results

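The genes described here encode the synaptic vesicle release machinery, the proteins that dock, prime and fuse transmitter vesicles at the presynaptic active zone. They are a named set of 43 genes out of the 32285 genes counted, found by symbol, and all 43 were in the count tables. The set holds 13 synaptotagmins, 4 SNARE genes, 6 SNARE regulators, 9 active zone genes, 7 vesicle protein genes and 4 genes of Rab3 and soluble C2 proteins.

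When an action potential admits calcium, synaptotagmins bind it and trigger fusion by the SNARE complex, in which synaptobrevin on the vesicle zips together with syntaxin and SNAP-25 on the plasma membrane. Munc13 and RIM proteins hold and prime vesicles at the active zone, complexins clamp and then promote fusion, tomosyns compete for the SNAREs, and NSF with its SNAP adaptors takes spent complexes apart. Different hippocampal neurons use different paralogs of these proteins, and the paralogs differ in calcium affinity and in the speed of release.

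The data are single-nucleus RNA counts from hippocampi of both hemispheres of C57BL/6N mice sampled at postnatal week 28. Of 4 mice, 2 were wild type (WT) and 2 were heterozygous for the R87C missense allele of Cyfip2 (Cyfip2+/R87C, here KI), each mouse giving 1 library, and all 4 carried the same batch label. The treatment label of KI replicate 2 reads R88C, while its genotype label reads R87C; it was kept in the KI group. A missense allele cannot be read from gene counts, so the genotype labels were not checked against the data.

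The libraries held 73009975 to 80913580 unique molecular identifiers (UMIs, 1 per captured RNA molecule) over 55640 barcodes, and 52032 nuclei stayed after removal of poor nuclei and likely doublets. Median UMIs per nucleus ran from 3868 to 4699. Malat1, a nuclear RNA, took 8.90% and 8.71% of the UMIs in WT and 13.7% and 12.2% in KI, and pairs of libraries shared 40 to 67 barcodes. Nuclei were clustered without the 43 genes, and 18 of 24 clusters were named from marker genes into 10 classes (6 clusters, 14.4% of nuclei, stayed unnamed). A class name such as DG granule stands for DG granule-like nuclei, and since the names were rebuilt here they can differ from those of the study. Between 3 of 7 markers (subicular or cortical excitatory) and all markers (astrocytes, oligodendrocytes, their precursors (OPC), microglia and Cajal-Retzius cells) were highest in the class they name, with 3 of 5 for DG granule, 3 of 5 for CA1, 4 of 5 for CA3 and 6 of 7 for inhibitory neurons.

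Expression is given as CPM, the UMIs of a gene divided by all UMIs of the same nuclei in the same library and scaled to a common total. A gene is said to rise, fall or pass below where its adjusted p was under 0.05 in edgeR's quasi-likelihood test on counts summed per mouse, with Benjamini-Hochberg adjustment over all genes tested. Log2 fold changes come from that fit, which scales libraries by TMM factors, so a small one can differ in sign from the CPM values. With 2 mice a group an exact permutation test cannot go below p = 0.333, and each p for KI against WT measures the spread between 4 mice. The p values between classes, and for KI differences that differ between classes, come from a joint fit with a library term. They measure the spread of class sums within the 4 libraries, not the spread between mice.

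The promoters of 3 members are shown first, because each passed for KI in at least 1 of the clusters of DG granule nuclei described below, and its KI and WT libraries did not overlap in either, the direction being shared. The sequences are the 250 bases before the RefSeq start of each gene on GRCm38.p6, read 5′ to 3′ on the gene's own strand, and capitals mark every GC box (GGGCGG, searched on both strands, so that CCGCCC also counts). Unc13c lies at chr9:73969038-73969287 (minus strand), Cplx1 at chr5:108550028-108550277 (minus strand) and Stxbp5l at chr16:37384959-37385208 (minus strand).
Unc13c: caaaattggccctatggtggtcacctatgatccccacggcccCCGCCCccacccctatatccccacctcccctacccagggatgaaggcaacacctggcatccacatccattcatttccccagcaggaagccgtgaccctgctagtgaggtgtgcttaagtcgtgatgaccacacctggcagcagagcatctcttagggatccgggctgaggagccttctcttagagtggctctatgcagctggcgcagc
Cplx1: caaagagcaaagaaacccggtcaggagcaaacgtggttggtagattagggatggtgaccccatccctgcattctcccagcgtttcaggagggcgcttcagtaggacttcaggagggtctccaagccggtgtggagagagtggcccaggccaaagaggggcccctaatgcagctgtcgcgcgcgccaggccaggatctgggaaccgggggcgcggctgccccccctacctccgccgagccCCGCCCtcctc
Stxbp5l: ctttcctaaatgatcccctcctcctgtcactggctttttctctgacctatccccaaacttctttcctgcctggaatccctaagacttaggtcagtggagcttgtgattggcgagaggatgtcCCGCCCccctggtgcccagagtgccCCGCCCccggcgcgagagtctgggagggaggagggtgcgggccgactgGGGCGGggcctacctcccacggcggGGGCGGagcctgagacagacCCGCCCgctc
Unc13c and Cplx1 held 1 GC box each and Stxbp5l held 5. Across 32851 RefSeq mouse promoters of the same length 32.7% held at least 1, so a match is common and describes only the letters in this window. The RefSeq table gave a promoter for 31 of the 43 genes and none for Doc2b or Syt17.

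Which class carries which paralog was examined before the genotypes were compared. In WT libraries the highest mean level of a member was in DG granule neurons for 11 genes, in CA3 for 8, in inhibitory neurons for 6 in subicular or cortical excitatory neurons for 4 and in CA1 for 2, and in oligodendrocytes for 5, Cajal-Retzius cells for 4, OPC for 2 and astrocytes for 1. For 14 of the 43 the WT libraries of that class overlapped those of the next one, among them all 4 genes of Cajal-Retzius cells, 3 of the oligodendrocyte genes and 3 of the subicular or cortical ones. Syt1, the calcium sensor of fast synchronous release, stood at 3964 CPM in CA3 and 3293 CPM in CA1, and the WT libraries of these classes did not overlap. Neurons held 20.2 to 22.5 Syt1 UMIs per nucleus and glia 1.03 to 4.09, and the part of RNA free in the suspension in the glial values was not tested. In the joint fit over 8 classes, 32 of 43 members were higher in its 4 neuron classes (DG granule, CA1, CA3 and inhibitory) than in glia and 6 were lower, where 37.4% of all genes were higher and 23.6% lower. With scaling by library totals the split of all genes turned from 7083 higher and 4470 lower to 3976 and 7560. Syt1 was 5.36-fold higher in neurons (log2 2.42, SE 0.08), Erc2, an active zone scaffold, 4.70-fold (log2 2.23, SE 0.10) and Rims1 differed by log2 2.15. With nuclei assigned one by one from markers in place of clusters these were log2 1.37, 1.26 and 1.29.

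Of the 43 members 5 had their highest CPM in oligodendrocytes, whose nuclei held few UMIs (medians of 1346 to 1480). Vamp2, synaptobrevin 2 of the vesicle, reached 94.1 CPM in WT oligodendrocytes but 0.133 to 0.165 UMIs per nucleus, against 0.222 to 0.285 in neurons. Unc13c was different. This gene encodes Munc13-3, a priming factor, and lies on chromosome 9 from 73479422 to 73968966 (GRCm38). It stood at 374 and 422 CPM in the WT OPC libraries and at 321 and 321 CPM in KI, with 0.858 and 1.09 UMIs per WT nucleus, while oligodendrocytes held 0.0147 and 0.0163. OPC were 5.91-fold above the next class, the astrocytes, and the libraries of the 2 classes did not overlap.

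**Figure D1:**
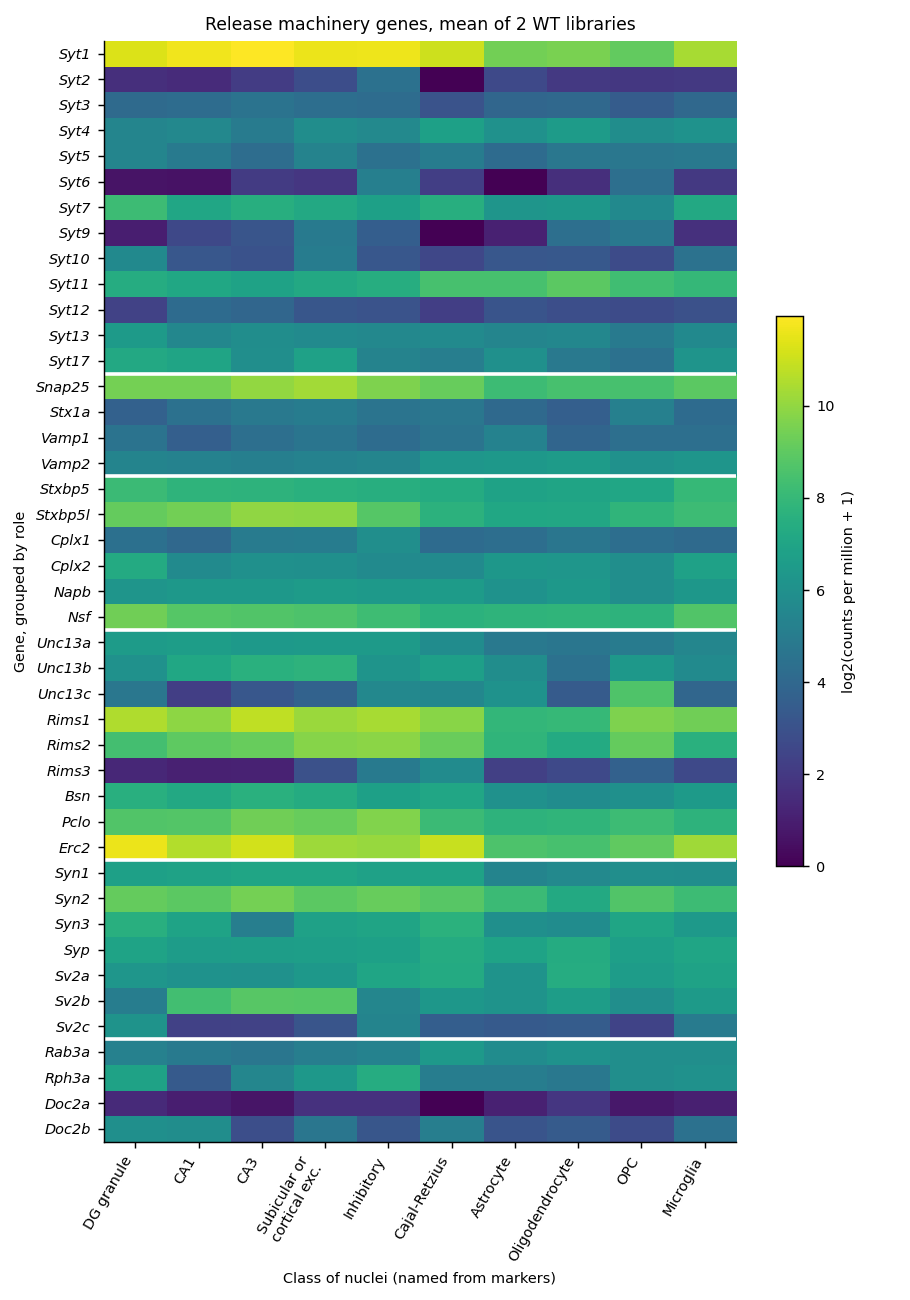
Mean level of the 43 genes in 2 WT libraries for each of 10 classes of nuclei, as log2(CPM + 1), with white lines between roles. Unc13c is brightest in OPC (398 CPM), Syt6 and Cplx1 in inhibitory neurons, and Sv2c in DG granule neurons (69.0 CPM).

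DG granule and CA1 neurons differed in 31 of 43 members (11 higher and 20 lower in CA1), where 21.7% of all genes were higher and 21.8% lower. The SV2 family, vesicle glycoproteins of which Sv2a is the target of the drug levetiracetam, split by class. Sv2b was at 30.9, 34.2, 34.0 and 42.4 CPM in DG granule neurons (WT replicates 1 and 2, then KI replicates 1 and 2) and at 317, 332, 330 and 371 CPM in CA1. It was 10.2-fold higher in CA1 (adjusted p = 1.22e-27). Sv2c ran the other way, at 63.0, 74.9, 115.9 and 93.9 CPM in DG granule neurons and 4.40, 3.43, 5.82 and 4.21 CPM in CA1, a 17.8-fold difference (adjusted p = 5.79e-23). Rph3a, the Rab3 effector rabphilin, was 12.5-fold lower in CA1 (log2 −3.64). With the marker assignment all 3 still passed at smaller differences, of log2 2.24 for Sv2b, −3.29 for Sv2c and −2.33 for Rph3a.

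CA3 and CA1 neurons differed in 25 members (18 higher and 7 lower in CA3), where 15.3% of all genes were higher and 14.7% lower. Doc2b, a soluble protein with calcium-binding C2 domains linked to spontaneous and asynchronous release, was 8.61-fold lower in CA3 (log2 −3.11, SE 0.11), and Syn3, a synapsin, 4.06-fold lower (log2 −2.02). With the marker assignment these were log2 −1.48 and −0.77. Of the 9 active zone genes 6 were higher in CA3 and 1 was lower. Of the 13 synaptotagmins 4 were higher and 4 lower, with Syt6 5.25-fold higher.

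Inhibitory neurons differed from the mean of the 3 excitatory classes in 35 members (13 higher and 22 lower), where 26.5% of all genes were higher and 24.2% lower. The inhibitory class includes a cluster led by Isl1 that was uneven between libraries, with 475 and 38 nuclei in WT and 196 and 472 in KI. With library totals the split of all genes moved from 5010 higher and 4580 lower to 7274 and 3047. All 6 SNARE regulators and all 7 vesicle protein genes passed, in both directions, but Syn1, Syn2, Syn3, Syp and Napb were lost when either WT library was left out. Under the 10 settings that keep every library Syn2 was lost in 9, Napb in 6, Syn1 in 5, Syn3 in 3 and Syp in 1. Syt6 was 22.2-fold higher (log2 4.47, SE 0.12), Rims3, a short RIM protein, 17.8-fold higher, Unc13c 7.14-fold higher and Syt2, a fast calcium sensor close to Syt1, 7.02-fold higher. With the marker assignment they were at log2 3.53, 2.40, 0.61 and 2.18, where the clusters gave 4.47, 4.15, 2.84 and 2.81. Sv2b was 4.21-fold lower and Doc2b 3.53-fold lower. Syt1 itself did not pass in this contrast (log2 −0.13, SE 0.13, adjusted p = 0.423).

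KI was then compared with WT, first over all nuclei. None of the 43 members rose and 2 fell, where 0.889% of the 21718 genes tested passed (0.506% higher and 0.382% lower). Doc2b stood at 35.6 and 33.2 CPM in WT mice, against 13.1 and 16.9 CPM in KI mice (log2 −1.15, SE 0.14, adjusted p = 0.0371). Syt17, an atypical synaptotagmin also called B/K protein, stood at 99.7 and 97.3 CPM in WT mice, against 51.6 and 61.2 CPM in KI mice (log2 −0.76, SE 0.10, adjusted p = 0.0438). Both KI libraries lay below both WT libraries for each gene. Over all nuclei, fewer cells of a class and less RNA per cell cannot be told apart, and DG granule nuclei, the class with the highest Doc2b and Syt17 levels, numbered 4305 and 3291 in WT and 2479 and 2227 in KI. Leaving out WT replicate 1 ended both calls, and leaving out WT replicate 2 ended that of Syt17.

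In DG granule neurons 7 of 43 members rose and 3 fell, where 9.54% of 16376 genes passed (4.74% higher and 4.81% lower). The median member was at log2 0.17. These nuclei came from 2 clusters that divided by genotype. The first, led by Onecut1 and Dsp, held 4072 and 3100 nuclei of the WT mice, against 201 and 583 of the KI mice. The second, led by Mylk3 and Wnt1, held 233 and 191 nuclei of the WT mice, against 2278 and 1644 of the KI mice. Each raised 3 of 5 DG granule markers. Within the class the 5 OPC markers together stood at 44.9 and 50.4 CPM in WT mice, against 181.6 and 124.5 CPM in KI mice (2 of 5 above WT in both KI libraries, 0 below), and the DG granule markers summed to 0.843 times the WT level. Their part in the results below was not tested.

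Over the whole DG granule class Doc2b had the largest fall, while inside each of its clusters, described below, Unc13c fell further. Doc2b lies on chromosome 11 (75768966 to 75796049, minus strand) and was at 61.7 and 61.3 CPM in WT mice, against 9.26 and 15.95 CPM in KI mice (log2 −2.17, SE 0.22, adjusted p = 0.00516). The antisense gene Gm12339, which overlaps it, had 381 and 357 UMIs in WT and 49 and 89 in KI, against 1110, 934, 111 and 155 for Doc2b. Whether the counting used strand is not given in the sources used here, so reads of the 2 genes cannot be told apart.

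Unc13c fell by a similar amount. It was at 25.6 and 26.2 CPM in WT mice, against 5.26 and 5.35 CPM in KI mice, from 461, 400, 63 and 52 UMIs (log2 −2.15, SE 0.15, adjusted p = 0.00273). The groups did not overlap, and the KI libraries held about the same level. The OPC markers name the class with the highest Unc13c level. Their sum was higher in KI in these nuclei, with 2 of 5 markers above WT in both KI libraries. Their part in the Unc13c fall was not tested. With nuclei assigned one by one from markers in place of clusters, the Unc13c change was log2 −0.57 and no longer passed. Syt17 also fell, from 152 and 146 CPM to 81.2 and 99.7 CPM (log2 −0.59, SE 0.11, adjusted p = 0.0276).

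Among the genes that rose, Stxbp5l, which encodes tomosyn-2, a SNARE-binding inhibitor of priming, was at 567.5 and 562 CPM in WT mice, against 849 and 860 CPM in KI mice (log2 0.73, SE 0.08, adjusted p = 0.00529). Cplx1, complexin 1, was at 20.9 and 19.8 CPM in WT mice, against 37.6 and 31.2 CPM in KI mice (log2 0.90, SE 0.16, adjusted p = 0.0216). Syn3 was at 183 and 189 CPM in WT mice, against 271 and 330 CPM in KI mice (log2 0.82, SE 0.10, adjusted p = 0.0091). In all 3 the KI libraries lay above both WT libraries.

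Vamp1, the paralog of Vamp2, was at 23.3 and 21.9 CPM in WT mice, against 31.0 and 39.0 CPM in KI mice (log2 0.76, SE 0.14, adjusted p = 0.0265). Its antisense neighbours Tapbpl and Cd27 held 41 to 63 and 109 to 143 UMIs in these nuclei, against 334 to 418 for Vamp1. Unc13b, which encodes the priming factor Munc13-2, was at 63.0 and 67.4 CPM in WT mice, against 100.8 and 81.9 CPM in KI mice (log2 0.63, SE 0.14, adjusted p = 0.0467). Sv2c, with the values given above, rose by log2 0.75 (SE 0.16, adjusted p = 0.0378), a call lost with the marker assignment. Syt12, a synaptotagmin without calcium binding, was low throughout, at 4.17 and 3.94 CPM in WT mice, against 9.59 and 6.59 CPM in KI mice (log2 1.14, SE 0.26, adjusted p = 0.0475). Its call was lost with the marker assignment, with library totals and with clustering on the member genes as well, and that of Unc13b with library totals.

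**Figure D2:**
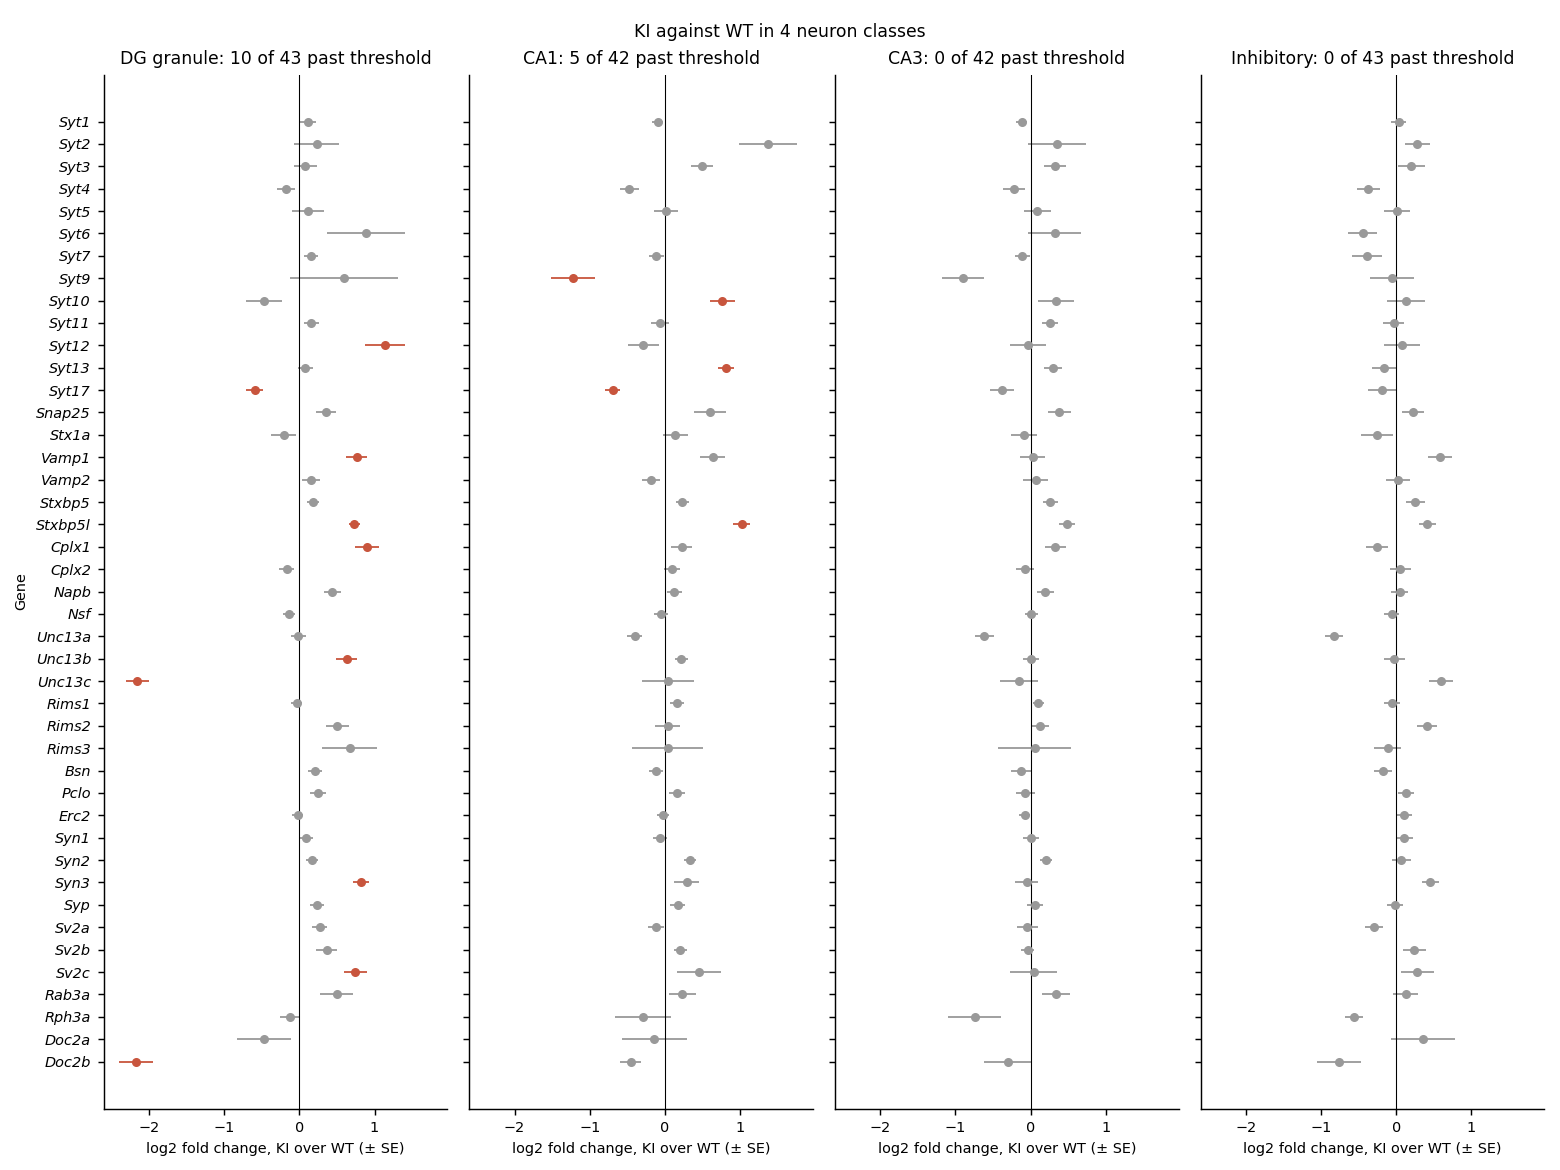
Log2 fold change of KI over WT (points, with SE as bars) for each of the 43 genes in DG granule, CA1, CA3 and inhibitory neurons, red where the adjusted p was under 0.05. Doc2b and Unc13c lie beyond −2 in DG granule neurons only in this plot, and no gene is red in CA3 or inhibitory neurons.

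Of these 10 calls only those of Doc2b and Unc13c were kept without WT replicate 1 or without WT replicate 2. Each such fit leaves a lone WT mouse, and the share of all genes called fell in both as well. Of the SNARE core Vamp1 was the only call among 4 genes, and Snap25, Stx1a, Vamp2 and the calcium sensor Syt1 did not pass. Syt1 was at 2671 and 2503 CPM in WT mice, against 2192 and 2909 CPM in KI mice, so the groups overlapped (log2 0.11, adjusted p = 0.575). Snap25 was at 679 and 728 CPM in WT mice, against 899 and 735 CPM in KI mice (adjusted p = 0.134), and Vamp2 at 43.1 and 39.3 CPM in WT mice, against 41.7 and 41.8 CPM in KI mice (adjusted p = 0.421). Stx1a, syntaxin 1A, was at 11.5 and 12.5 CPM in WT mice, against 8.68 and 10.3 CPM in KI mice (adjusted p = 0.452).

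The priming factor Unc13a, the scaffold Rims1 and the vesicle protein genes Syp and Syn1 did not pass there either. Unc13a, Munc13-1, was at 95.1 and 93.0 CPM in WT mice, against 80.1 and 89.8 CPM in KI mice (adjusted p = 0.940). Rims1 was at 1489 and 1501 CPM in WT mice, against 1316 and 1340 CPM in KI mice (adjusted p = 0.768). Syp, synaptophysin, was at 119 and 125 CPM in WT mice, against 133 and 129 CPM in KI mice (adjusted p = 0.166), and Syn1, synapsin 1, at 109 and 109 CPM in WT mice, against 102 and 111 CPM in KI mice (adjusted p = 0.534). On the CPM scale KI lay below WT for Rims1, Unc13a and Stx1a, above it for Syp and Snap25, and overlapped it for Vamp2 and Syn1. The fit, which scales by TMM factors, put Unc13a at log2 −0.01 (SE 0.10) and Rims1 at log2 −0.04 (SE 0.07).

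Since the 2 clusters of the DG granule class divided by genotype, KI was also compared with WT inside each cluster. In the cluster with most WT nuclei 5 members passed, where 4.76% of all genes did, and in the cluster with most KI nuclei 3 passed, where 3.61% did. Doc2b, Unc13c and Stxbp5l passed in both. Doc2b was at 62.9 and 63.3 CPM in WT mice, against 11.7 and 20.2 CPM in KI mice in the first cluster and at 40.3 and 26.6 CPM in WT mice, against 9.05 and 14.4 CPM in KI mice in the second (log2 −1.71 and −1.47). Unc13c changed by log2 −2.20 and −2.72, with adjusted p = 0.00274 and 7.71e-05, and Stxbp5l by log2 0.57 and 0.55. Counts were low on the smaller side of each comparison. In the first cluster the KI libraries held 7 and 11 Unc13c UMIs and 11 and 53 Doc2b UMIs. In the second the WT libraries held 42 and 25 Unc13c UMIs and 38 and 22 Doc2b UMIs. Cplx1 had log2 0.78 (adjusted p = 0.0286) and 0.88 (adjusted p = 0.113).

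The other calls of the whole class did not pass inside either cluster. Sv2c was at 58.9 and 69.0 CPM in WT mice, against 48.8 and 52.9 CPM in KI mice in the first cluster, and at 137.9 and 177.9 CPM in WT mice, against 121.6 and 109.0 CPM in KI mice in the second. KI thus lay below WT in each cluster (log2 −0.19 and −0.37, not past the threshold), against a rise in the whole class, and the level was higher in the second cluster, which holds most KI nuclei. Unc13b (log2 0.13 and −0.14) and Syt12 (0.59 and −0.37) had a different sign in the clusters, Syn3 had 0.06 and 0.54, Vamp1 had 0.47 and 0.51 and Syt17 had −0.55 and −0.48, none past the threshold. For Syt17 the whole class gave −0.59, and both KI libraries lay below both WT libraries in each cluster. Syt10, a synaptotagmin, was the fifth call of the first cluster (log2 0.73, adjusted p = 0.0184), while over the whole class it had log2 −0.47 and did not pass.

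**Figure D3:**
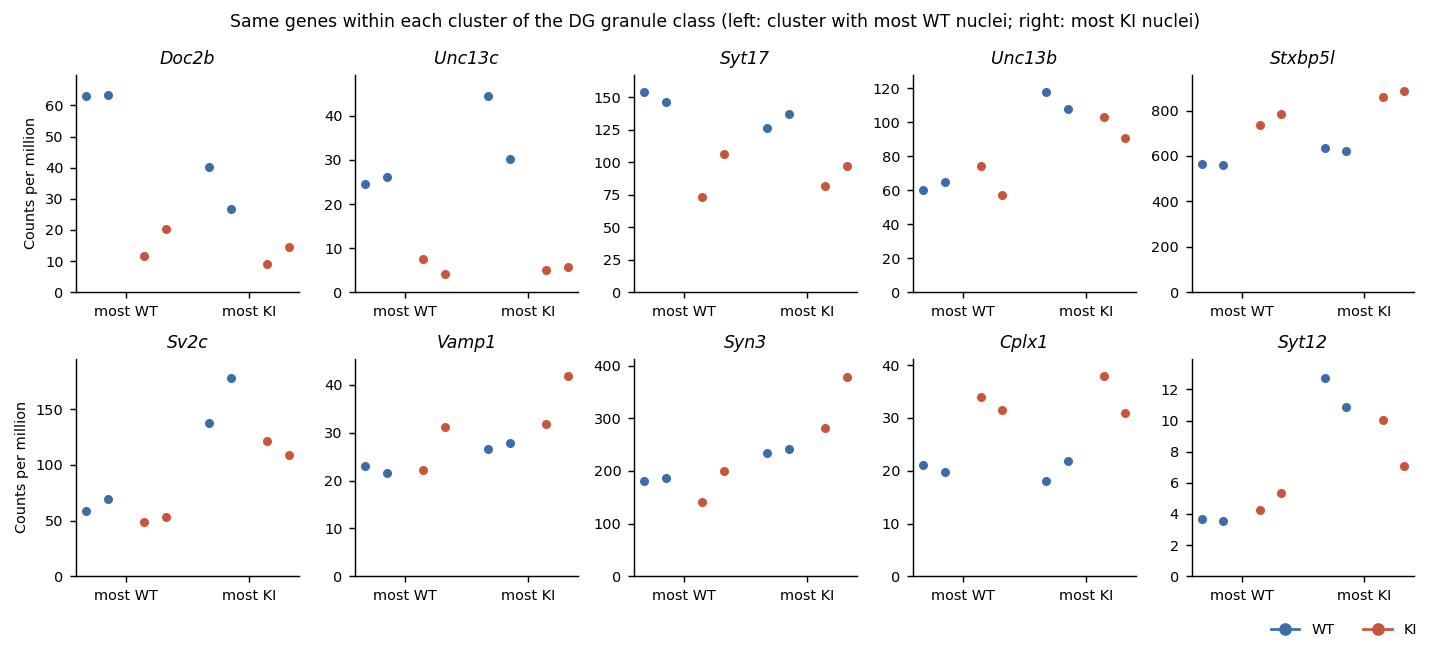
CPM of the 10 genes called in DG granule neurons, inside the cluster with most WT nuclei (left in each panel) and the one with most KI nuclei (right), each point being 1 library. Doc2b and Unc13c are lower and Stxbp5l and Cplx1 higher in both KI libraries in each cluster, while Sv2c is lower in KI in each.

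In CA1 neurons 3 of 42 members tested rose and 2 fell, where 7.79% of 16028 genes passed (4.85% higher and 2.93% lower). The CA1 markers themselves were lower in KI (445 and 434 CPM in sum in WT, 289 and 276 CPM in KI, 5 of 5 markers below), and the OPC markers summed to 1.52 times the WT level (1 of 5 above WT in both KI libraries, 2 below), and their part in the results was not tested. Stxbp5l was at 694 and 649 CPM in WT mice, against 1357 and 1185 CPM in KI mice (log2 1.02, SE 0.11, adjusted p = 0.00501). Syt17 fell here too, from 124 and 129 CPM to 72.1 and 74.3 CPM (log2 −0.70, SE 0.10, adjusted p = 0.0104). The groups did not overlap for either gene.

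The other CA1 calls were synaptotagmins. Syt13, which lacks calcium binding, was at 44.7 and 46.4 CPM in WT mice, against 68.5 and 82.1 CPM in KI mice (log2 0.81, SE 0.11, adjusted p = 0.0101). Syt10 had 8.42 and 8.48 CPM in WT mice, against 12.8 and 14.15 CPM in KI mice (log2 0.76, SE 0.17, adjusted p = 0.0383). Syt9 was at 4.95 and 5.23 CPM in WT mice, against 2.26 and 1.79 CPM in KI mice (log2 −1.22, SE 0.29, adjusted p = 0.0471). Stxbp5l and Syt13 passed whichever library was left out. Syt17 was lost without WT replicate 2, and Syt9 and Syt10 were lost without either WT library. With nuclei assigned one by one from markers Syt9, Syt10 and Syt13 were lost, with DESeq2 Syt9 and Syt10, with library totals Syt10, and with clustering on the member genes as well Syt9.

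No member passed in CA3 (42 tested, 2.39% of all genes passing) or in inhibitory neurons (43 tested, 0.0125% of all genes passing). At an unadjusted p under 0.05 there were 10 members in CA3, where 21% of all genes were, and 11 in inhibitory neurons, where 14.3% were. DESeq2's Wald test called 2 members in CA3 (Unc13a and Stxbp5l), where it called 2.95% of all genes, and 1 in inhibitory neurons (Unc13a), where it called 1.09%. The inhibitory class held a cluster led by Isl1 with 475, 38, 196 and 472 nuclei, and without it 1.15% of all genes and 1 member (Unc13a) passed. In subicular or cortical excitatory neurons, where no gene passed, 7 of 43 members had an unadjusted p under 0.05, as did 16.4% of all genes, and DESeq2 called 3 (Rph3a, Syt17 and Unc13a) beside 1.36% of all genes.

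Glia and Cajal-Retzius cells had no member past the threshold with edgeR or DESeq2. Of all genes 0.224% passed in astrocytes, 0.765% in oligodendrocytes, 0.781% in OPC, none in microglia and 0.116% in Cajal-Retzius cells. At an unadjusted p under 0.05 astrocytes had 8 of 35 members (11.5% of all genes), oligodendrocytes 6 of 40 (14.2%), OPC 4 of 34 (12.1%), microglia 1 of 32 (6% of all genes) and Cajal-Retzius cells 1 of 21 (7.44%). The members not tested in these classes had too few counts.

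Unc13a had lower CPM in both KI libraries of all 5 neuron classes named above but passed in none of them with edgeR on the whole class, and in DG granule neurons its fitted difference was near 0, as given above. It was at 103.5 and 97.1 CPM in WT mice, against 69.3 and 72.9 CPM in KI mice in CA1 (adjusted p = 0.0512), and at 89.5 and 85.1 CPM in WT mice, against 48.6 and 59.9 CPM in KI mice in CA3 (adjusted p = 0.0524). In inhibitory neurons it was at 87.5 and 95.5 CPM in WT mice, against 45.3 and 51.1 CPM in KI mice (log2 −0.83, SE 0.12, adjusted p = 0.118). Stxbp5l in CA3 was at 1066 and 936 CPM in WT mice, against 1390 and 1261 CPM in KI mice (adjusted p = 0.0551).

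Whether the KI difference itself differed between classes was tested in the joint fit. Between CA1 and DG granule neurons it differed for 7 members (4 higher and 3 lower), where 7.27% of all genes did (4.21% higher and 3.06% lower). Doc2b was at 57.5 and 58.6 CPM in WT mice, against 34.0 and 45.7 CPM in KI mice in CA1, so its KI difference was less negative there by log2 1.73 (SE 0.17, adjusted p = 2.25e-09). Unc13c differed by log2 2.21 (SE 0.37, adjusted p = 5.15e-05), its CA1 level being 3.01 and 4.42 CPM in WT mice, against 4.28 and 2.78 CPM in KI mice in CA1. Syt10 and Syt13, which rose in CA1, differed by log2 1.26 and 0.73, and in DG granule neurons Syt10 was at 54.7 and 46.2 CPM in WT mice, against 24.5 and 42.6 CPM in KI mice. Inside the DG granule cluster with most WT nuclei Syt10 was higher in KI, by the log2 0.73 given above, while in the cluster with most KI nuclei it had log2 0.00 (adjusted p = 0.999). Syt13 had log2 0.08 in the whole DG granule class but 0.31 and 0.62 inside the clusters with most WT and most KI nuclei, neither past the threshold (adjusted p = 0.182 and 0.127). The difference from CA1 was not tested inside the clusters. Both differences were lost without WT replicate 1, and that of Syt13 also with the marker assignment. The Unc13c difference was lost with the marker assignment too (log2 1.21).

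Between CA3 and DG granule neurons 8 members differed (2 higher and 6 lower), where 5.74% of all genes did (2.91% higher and 2.83% lower). Doc2b and Unc13c were less negative in CA3 (log2 1.87 and 2.00, with Unc13c at 0.97 and lost with the marker assignment), and Syt12, Syn3, Vamp1, Unc13b, Unc13a and Cplx1 were lower in CA3 relative to DG granule neurons. These last 6 were all lost when either WT library was left out, and Cplx1 also in 5 of 9 settings that keep every library. Cplx1 was not alone in this, since fewer than 8 members passed with DESeq2 (5), the marker assignment (4) and without the library term (2). The share of all genes under these settings is not given. Between CA3 and CA1 no member differed by edgeR, where 0.75% of all genes did. Between inhibitory neurons and the excitatory mean 5 members differed (1 higher and 4 lower), where 1.63% of all genes did (0.75% higher and 0.882% lower). Cplx1 was the firmest of those that were lower (log2 −0.71, SE 0.13, adjusted p = 0.00112). Comparisons that involve DG granule neurons share its libraries and its division into clusters.

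Further genes of the pathway were counted from 3 lists. Of 37 other release genes, 35 were tested in DG granule neurons, where 6 rose and 3 fell (9.54% of all genes passed). Rimbp2, which links RIM to calcium channels, rose by log2 0.90 (278.8 and 293 CPM in WT mice, against 555 and 414 CPM in KI mice) and Napg, a SNAP adaptor, by 0.70, while Rab27b, a Rab GTPase of secretory vesicles, fell by 0.93 (82.2 and 85.0 CPM in WT mice, against 37.8 and 42.3 CPM in KI mice), with log2 0.30 inside the cluster with most KI nuclei. In CA1 4 of 34 rose and 4 fell (7.79% of all genes passed). Stx3, a syntaxin, was the firmest (67.9 and 69.3 CPM in WT mice, against 154 and 177 CPM in KI mice, log2 1.36, adjusted p = 0.00230), and it also rose over all nuclei (log2 0.72), in DG granule neurons (0.56) and in CA3 (0.78). Of the other release genes 0 of 34 passed in inhibitory neurons, where 2 of 15937 genes did.

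Vesicle recycling genes retrieve membrane after fusion. Of 20 on the list, where 7.79% of all genes passed, 3 rose in CA1 (Dnm3, a dynamin, by log2 0.75, Amph by 0.53 and Dnajc6, the clathrin-uncoating auxilin, by 0.39) and Hspa8 fell by log2 1.13. Dnm3 was at 89.2 and 89.2 CPM in WT mice, against 132 and 149 CPM in KI mice in CA1, but at 164 and 168 CPM in WT mice, against 94.8 and 112 CPM in KI mice in DG granule neurons, where it fell by log2 0.55. Of 10 transmitter loading genes, 8 were tested in each of DG granule, CA1 and CA3 neurons, and 1 passed (Atp6v1a, a subunit of the vesicular proton pump, up by log2 0.56 in DG granule neurons), where 9.54%, 7.79% and 2.39% of all genes passed in these classes.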

How the data were processed

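The deposited files hold counts: whole UMI numbers per gene and barcode, made by the authors with Cell Ranger 7.0.1 on mm10 and already limited to called cells. The reading of introns and of strand is not given in the sources used here. Barcodes with at least 500 genes, at most 5% mitochondrial UMIs and a doublet score of at most 0.25 were kept (345 barcodes failed the gene and mitochondrial limits, and 3263, or 5.90%, were called doublets). Nuclei were clustered with scanpy 1.11.5 and leidenalg 0.10.2 on 2000 variable genes without the members, 30 principal components and 20 neighbours at resolution 0.5. A resolution of 1, tried first, was left after clusters were seen to divide by genotype. Clusters were named from markers where at least 3 were raised 2-fold.

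Counts were summed per library and class, with at least 20 nuclei in each library, and tested with edgeR 4.0.16 (R 4.3.3, filterByExpr, TMM, quasi-likelihood test, Benjamini-Hochberg adjustment over all genes tested, threshold 0.05). Classes were compared in 1 model over 8 classes with the library as a term. DESeq2 1.42.0, other scalings, filters, class definitions and left-out libraries were alternatives. The study itself tested single nuclei. The members and the gene lists were chosen with earlier results of these data known. Values per library are given for members past the threshold (at most 8 per direction and class) and for Syt1, Snap25, Stx1a, Vamp2, Unc13a, Rims1, Syp and Syn1. Syt6, Syt2, Sv2b, Rph3a, Rims3, Erc2, Doc2b in CA1 and Stxbp5l in CA3 were named after their values were seen. Genes of the pathway lists were named, up to 3 per list, class and direction, by size among those past the threshold, and the values of Stx3 and Dnm3 in further classes were added after they were seen.

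Simulated counts with known changes gave back 69% of 2-fold and 92% of 4-fold changes for KI against WT in DG granule neurons (16376 genes). The rates were 65% and 91% in CA1, 65% and 90% in CA3, and 53% and 84% in inhibitory neurons. False calls numbered 6, 9, 12 and 2 in the same order. In the data the KI mice lay further apart than the WT mice. In DG granule neurons the log2 gap within a pair had an SD of 0.542 in KI and 0.273 in WT. In CA1 these were 0.486 and 0.301, in CA3 0.507 and 0.299, and in inhibitory neurons 0.480 and 0.444. How far the rates hold with this unequal spread, or with clusters that divide by genotype, was not tested.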

Additional observations from a re-analysis of the deposited data

Results flagged for a closer look

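The KI difference itself differed between classes for 20 gene and class pairs in edgeR's joint fit (adjusted p under 0.05), each value being the difference of log2 fold changes. For CA1 against DG granule neurons it was −1.78 for Syt9, −1.42 for Syt12, −0.67 for Cplx1, 0.73 for Syt13, 1.26 for Syt10, 1.73 for Doc2b and 2.21 for Unc13c. Syt9 rested on 23, 11, 27 and 4 UMIs in DG granule neurons, and its KI libraries there lay on both sides of WT. For CA3 against DG granule neurons it was −1.18 for Syt12, −0.88 for Syn3, −0.73 for Vamp1, −0.63 for Unc13b, −0.61 for Unc13a, −0.57 for Cplx1, 1.87 for Doc2b and 2.00 for Unc13c. For inhibitory against the mean of the 3 excitatory classes it was −1.13 for Syt6, −0.71 for Cplx1, −0.55 for Syt13, −0.48 for Unc13a and 1.36 for Unc13c. The DG granule values behind these differences come from clusters that divide by genotype, and Syt12, Unc13b and Syt10 turned direction inside at least 1 of them (Syt10 from log2 −0.47 to 0.73). Of the 20 differences 6 passed whichever library was left out (Doc2b and Unc13c in all their pairs, and Syt12 for CA1 against DG granule), and the 3 of Unc13c were lost with nuclei assigned one by one from markers.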

How the results depend on the processing

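With 2 mice a group, calls near the threshold moved with the setting, and for each the cause was not tested. Counts of members past the threshold are given against those of the report, with the share of all genes called under the same setting as a percentage. Over all nuclei (2, with 0.889% of all genes) there were 6 with DESeq2 (8.42%), 1 with no doublet removal (0.771%) and 4 with no low-count filter (2.51%). In CA1 (5, 7.79%) there were 2 with nuclei assigned one by one from markers (2.68%), which put 32.3% of the CA1 nuclei in the same class, against 59.2% for DG granule neurons. In CA3 (0, 2.39%) there were 2 with DESeq2 (2.95%) and 5 with no low-count filter (7.55%). In inhibitory neurons (0, 0.0125%) there was 1 with DESeq2 (1.09%), 1 with no doublet removal (1.35%), 6 with no low-count filter (3.92%) and 1 without the Isl1 cluster (1.15%). Over the other classes together (0) DESeq2 gave 3, all in subicular or cortical excitatory neurons (1.36%). In OPC there was 1 with RLE factors (0.836%), 1 with library totals (1.17%), 1 with no doublet removal (1.43%) and 2 with the marker assignment (1.39%). With no low-count filter there were 10. Of these 6 were in subicular or cortical excitatory neurons (4.96%), 2 in oligodendrocytes (3.34%), 1 in astrocytes (1.1%) and 1 in OPC (0.88%). The Isl1 cluster, the crossed block and the tests inside DG clusters were chosen after seeing the data. Inside those clusters the DG granule count (10, 9.54%) was 5 (4.76%) and 3 (3.61%). Over all settings that keep every library, 157 of 186 values of the members called for KI kept their direction and passed, 25 no longer passed and 4 turned direction, and 148 of 185 differences between classes in the KI effect passed. With 1 library left out 44 of 68 and 49 of 80 still passed, and 14 of the 20 differences between classes were lost without at least 1 library.

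Leaving out 1 library gave 0 to 15 calls over all nuclei, 2 to 24 in DG granule neurons, 3 to 23 in CA1, 1 to 13 in CA3, 0 to 2 in inhibitory neurons and 0 to 31 over the other classes. In the same order 0.567% to 32.4%, 1.25% to 46%, 3.88% to 43.4%, 1.2% to 33.6%, 0% to 4.39% and, in the other classes, 0% to 21% of all genes were called. In DG granule and CA1 neurons the high counts came without a KI library (22 and 24, and 22 and 23), and the low ones in the excitatory classes without a WT library, and the lone mouse is then assumed to vary like the others. Between classes the counts were 21 to 33 for CA1 against DG granule, 13 to 29 for CA3 against CA1 (25 in the report), 28 to 37 for inhibitory against excitatory and 37 to 38 for neurons against glia. For differences between classes in the KI effect they were 3 to 9 for CA1 against DG granule (7), 2 to 11 for CA3 against DG granule (8), 0 to 1 for CA3 against CA1 (0) and 2 to 5 for inhibitory against excitatory (5). DESeq2 gave 5 for CA3 against DG granule, and the marker assignment gave 4, 4 and 2 for CA1 against DG granule, CA3 against DG granule and inhibitory against excitatory. For these counts between classes the share of all genes under the same setting is not given. A move of the members can therefore not be told from a move of all genes.

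The replicate numbers are not stated to pair the mice, and same-numbered mice deviated together with r = 0.0265 over all nuclei, −0.0326 in DG granule, −0.0352 in CA1, −0.0328 in CA3, −0.179 in inhibitory neurons, 0.185 in subicular or cortical excitatory neurons and −0.252 to 0.00367 in the remaining classes. With the replicate block the counts were 6 over all nuclei, 14 in DG granule, 12 in CA1, 4 in CA3, 1 in inhibitory neurons and 8 over the other classes (6 of them in subicular or cortical excitatory neurons), with 9%, 17.9%, 15.9%, 9.1%, 1.36% and, in the subicular or cortical class, 6.41% of all genes, and all 10 DG granule and 5 CA1 calls were kept. With crossed pairing they were 0 over all nuclei (0%), 13 in DG granule (15.9%), 7 in CA1 (12.2%), 3 in CA3 (5.55%) and 6 in inhibitory neurons (5.9%). Over the other classes there was 1 in astrocytes (2.76%), 1 in oligodendrocytes (2.43%) and 1 in OPC (1.38%). This arbitrary pairing kept the same 10 DG granule and 5 CA1 calls. Their being kept with the replicate block therefore does not show how the mice pair. Without the library term (no replicate block) the KI effect differed for 4 members in CA1 against DG granule neurons. It differed for 2 in CA3 against DG granule and for 1 in inhibitory against excitatory neurons. The share of all genes under this setting is not given.

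Library totals in place of TMM shifted the median log2 of all genes to −0.135 in DG granule, −0.0906 in CA1 and −0.0925 in inhibitory neurons, and turned the split of all DG granule calls from 776 higher and 787 lower to 611 and 1224 (CA1 778 and 470 to 595 and 624, CA3 240 and 131 to 142 and 136). Unc13b and Syt12 were lost in DG granule neurons with these totals. Values that turned sign with library totals were Syt1 (−0.0202) and Syn1 (−0.0396) in DG granule neurons, Napb in inhibitory against excitatory neurons (0.0154), and Cplx2 (−0.0569) and Syp (−0.25) in neurons against glia. With the marker assignment they were Unc13c in CA1 against DG granule (0.0839), Syn3 in inhibitory against excitatory (−0.15), Rims3 in neurons against glia (0.34), and Stxbp6 (0.15) and Synpr (0.10) for KI in CA3. Inside the cluster with most WT nuclei 9 of 42 members tested had another sign than in the whole class, and inside that with most KI nuclei 9 of 39. Among them were, in the first, Syt10 (0.73), Syn2 (−0.30), Syt1 (−0.0186), Syn1 (−0.18) and Sv2c (−0.19), and in the second Sv2b (−0.0297), Sv2c (−0.37), Syt12 (−0.37) and Unc13b (−0.14), where Rab27b of the pathway lists turned too (0.30). In DG granule neurons Syt1 ran from −0.0689 (without KI replicate 2) to 0.272 and Unc13a from −0.0628 to 0.0359 (without KI replicate 1).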
